A study of Mus musculus with 12 samples.

Results

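The growth hormone (GH) pathway and insulin-like growth factor (IGF) genes described here are the 10 genes *Ghr*, *Jak2*, *Stat5a*, *Stat5b*, *Igf1*, *Igfals*, *Socs2*, *Cish*, *Bcl6* and *Hsd3b5*, taken by gene symbol from a table of 45777 genes. All 10 were found and all 10 passed the filter on low counts in every comparison. The livers came from male C57BL/6 mice aged 10 to 12 weeks, either WT or labelled Gα12KO, a knockout of *Gna12*, which encodes the G protein alpha subunit Gα12, with no Cre driver named in the sources used here. The mice were fasted overnight, injected intraperitoneally with 300 mg/kg acetaminophen (APAP) or with vehicle, and sampled 6 h later, which gave 4 groups of 3 livers. APAP is an analgesic that injures pericentral hepatocytes at this kind of dose, and the comparisons ask how GH signalling genes stood at an early time of that injury and whether the genotype label changed it.

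GH reaches the liver from the pituitary and, in male rodents, arrives in pulses. It binds the GH receptor (*Ghr*), which activates the kinase JAK2 (*Jak2*) and, through it, the transcription factors STAT5A and STAT5B. STAT5 drives *Igf1*, the secreted growth factor, and *Igfals*, the acid-labile subunit that keeps IGF-1 in a large complex in blood, as well as *Socs2* and *Cish*, feedback inhibitors of the same receptor. The repressor *Bcl6* is lowered by GH-activated STAT5, and *Hsd3b5*, a steroid dehydrogenase, is a male-specific liver gene that depends on pulsed GH.

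Sequencing depth was even, with 49737950 to 69566079 counts per liver. Hepatocyte markers were high in every liver (summed level of 8 genes 70645 to 142646 CPM, counts scaled to a common library size), so the labelled tissue was borne out. Levels below are in CPM after scaling by trimmed mean of M values (TMM), unless TPM, transcript abundance scaled by length and depth, is named. *Gna12* itself was not lower under the knockout label, at 54.6 to 67.2 CPM with vehicle against 34.8 to 66.7 CPM in WT, and at 43.5 to 48.3 CPM after APAP against 23.7 to 58.1 CPM in WT. The genotype groups are therefore named by their label, and no direction is read as an effect of losing *Gna12*. The paper also lists PCR of tail DNA and qRT-PCR of liver *Gna12* in WT and knockout mice, which were not compared with these counts. Why the counts were not lower was not tested. WT APAP liver 1 stood apart, with 4731 CPM of the hemoglobin gene *Hba-a1* against 44.6 to 170.4 CPM elsewhere, a summed neutrophil marker level of 131 CPM against 1.15 to 22.5 CPM, and the lowest TMM factor, 0.750. Where leaving it out changed a call among the 10 genes, the value without it is given. Nothing in the labels says that livers shared a cage or a day.

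STAT5 dimers bind palindromes of the form TTCNNNGAA, and such letters were looked for in the RefSeq promoter windows of the genes (GRCm38.p6, 250 bases before to 50 bases after each start site) as a description of the genes that STAT5 is known to act on. A match is a description of letters and not a shown binding site. Since the motif is its own reverse complement, 1 search covers both strands. Windows were given for 9 of the 10 genes, 15 windows in all, and not for *Socs2*. The motif occurred in 5 of the 15 windows and in 3 of the 9 genes (*Cish*, *Bcl6* and *Igfals*), against 8.30% of 32851 windows and 9.55% of 27025 genes. The windows of the 3 genes that carry it are printed 5′ to 3′ on the strand of the gene, with each match in capitals, *Cish* with its close pair and *Bcl6* with its cluster of 3, followed by both *Igfals* windows that hold a match.
Cish, chr9:107296409-107296708, + strand: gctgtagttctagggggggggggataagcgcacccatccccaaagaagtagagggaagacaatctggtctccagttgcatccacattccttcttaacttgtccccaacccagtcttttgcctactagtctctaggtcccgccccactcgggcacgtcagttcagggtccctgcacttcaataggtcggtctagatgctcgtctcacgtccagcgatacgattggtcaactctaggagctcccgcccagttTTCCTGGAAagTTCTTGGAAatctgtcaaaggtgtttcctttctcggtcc
Bcl6, chr16:23981234-23981533, − strand: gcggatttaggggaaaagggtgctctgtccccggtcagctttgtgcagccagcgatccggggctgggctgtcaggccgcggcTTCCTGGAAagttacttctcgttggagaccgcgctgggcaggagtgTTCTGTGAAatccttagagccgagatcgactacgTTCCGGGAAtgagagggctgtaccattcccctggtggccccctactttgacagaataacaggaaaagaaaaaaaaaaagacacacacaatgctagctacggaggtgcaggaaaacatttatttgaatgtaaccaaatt
Igfals, chr17:24877594-24877893, + strand: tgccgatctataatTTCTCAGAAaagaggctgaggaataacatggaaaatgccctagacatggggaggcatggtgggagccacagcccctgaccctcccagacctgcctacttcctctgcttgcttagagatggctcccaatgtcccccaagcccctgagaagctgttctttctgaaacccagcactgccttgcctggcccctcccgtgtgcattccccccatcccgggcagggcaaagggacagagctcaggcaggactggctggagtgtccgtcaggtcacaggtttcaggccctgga
Igfals, chr17:24877981-24878280, + strand: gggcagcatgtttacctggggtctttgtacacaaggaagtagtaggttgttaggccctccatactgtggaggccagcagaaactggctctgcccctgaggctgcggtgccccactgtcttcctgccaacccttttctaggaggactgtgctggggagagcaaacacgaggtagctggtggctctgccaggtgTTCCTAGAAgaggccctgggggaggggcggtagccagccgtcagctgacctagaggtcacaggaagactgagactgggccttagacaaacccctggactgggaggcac

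In *Cish* the matches TTCCTGGAA and TTCTTGGAA began at 0 and 11 bases from the start site. In the shown *Bcl6* window TTCCTGGAA, TTCTGTGAA and TTCCGGGAA began at -168, -122 and -88 bases from it, negative being upstream, and the other *Bcl6* window, chr16:23988803-23989102, held 1 match. The stricter form TTCCNGGAA, which lies within the first motif, was found in 1.15% of all windows and in *Cish* and *Bcl6* only among the 9 genes searched. No match was found in the windows of *Ghr*, *Jak2*, *Stat5a*, *Stat5b*, *Igf1* or *Hsd3b5*, which says only that these letters are not in those 300 bases.

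**Figure D1:**
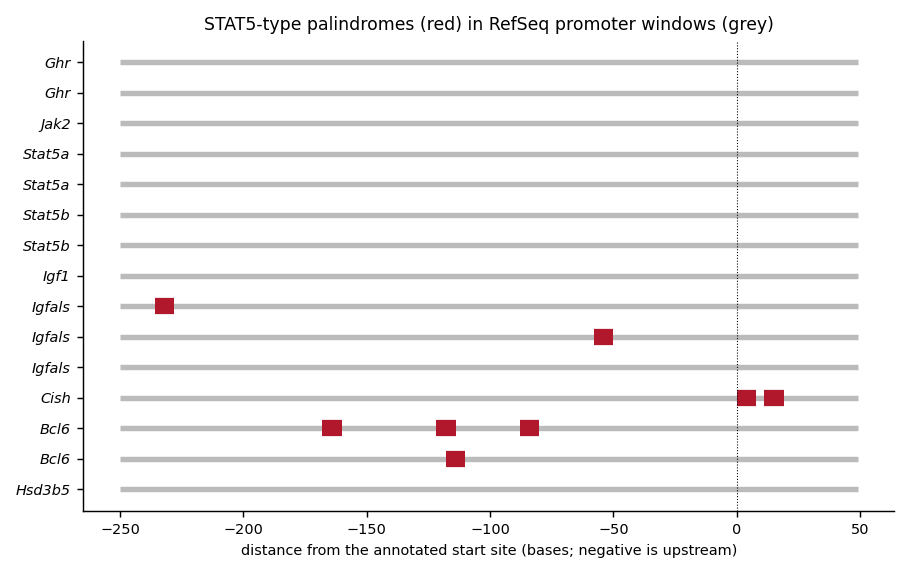
Positions of TTCNNNGAA (red boxes) in the 15 RefSeq promoter windows (grey bars) of 9 genes, with distance from the annotated start site in bases on the x axis and 1 row per window. Matches lie in both *Bcl6* windows, the *Cish* window and 2 of the 3 *Igfals* windows.

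On the TPM scale, which divides by transcript length, the receptor and the secreted products were the most abundant of the 10 genes. *Ghr* averaged 117 TPM over the 12 livers, *Igf1* 99.5, *Igfals* 62.2 and *Hsd3b5* 44.1 TPM. After a gap came *Stat5b* at 11.6, *Bcl6* at 10.3, *Cish* at 8.46, *Socs2* at 6.46, *Jak2* at 4.86 and *Stat5a* at 3.62 TPM. *Hsd3b5* exceeded *Stat5b* in 12 of 12 livers with no overlap of their ranges, whereas every other pair of neighbours in this order overlapped. *Bcl6* exceeded *Cish* in only 6 of 12 livers, so the order of that pair is not set by these data.

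The genes fell into steady and variable ones. The SD within groups of the log2 level was 0.15 for *Stat5b* and 0.18 for *Ghr*, against a median of 0.34 over 16509 genes. The same SD was 0.73 for *Socs2*, 0.98 for *Bcl6* and 1.60 for *Cish*, above 85.6%, 92.8% and 99.0% of genes.

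**Figure D2:**
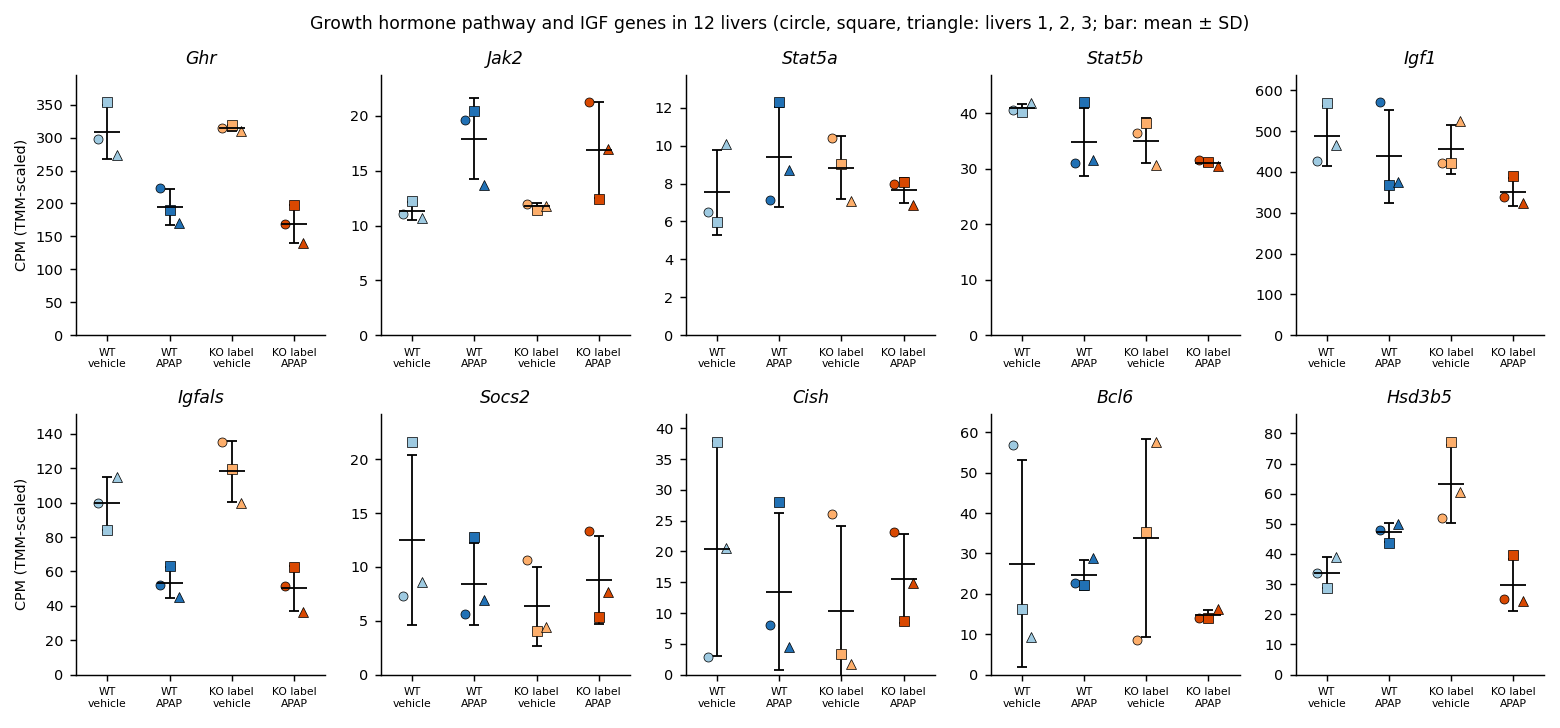
Level of each of the 10 genes in CPM (y axis, from 0) in the 4 groups, with 1 point per liver and bars for the mean ± SD (n = 3, the lower bar of *Cish* in vehicle livers with the KO label runs below 0 and is cut). *Ghr* and *Igfals* sit lower and *Jak2* higher in all 6 APAP livers than in all 6 vehicle livers. *Cish* and *Socs2* spread widely within groups, and *Bcl6* does so within the vehicle groups.

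The clearest change in the pathway was at the receptor and at the carrier of IGF-1. *Ghr* was at 298, 353 and 273 CPM in the WT vehicle livers and at 223, 190.0 and 170.5 CPM in the WT APAP livers. With the KO label it was at 315, 319 and 309 CPM with vehicle and at 169, 197 and 140.3 CPM with APAP. All 6 APAP livers lay below all 6 vehicle livers. Averaged over both labels, *Ghr* fell by 0.78 on the log2 scale (SE 0.12, 1.72-fold lower, edgeR quasi-likelihood adjusted p = 0.00085). Within the KO label the fall was 0.89 (SE 0.15, adjusted p = 0.0057), and in WT alone the log2 fold change of -0.65 (SE 0.20) did not pass the test (adjusted p = 0.145), although those groups did not overlap either. On log2(TPM + 1) the fall under the KO label was smaller, with a log2 fold change of -0.56. Over the alternatives other than leaving out livers, the smallest fall had a log2 fold change of -0.52 averaged over both labels and -0.48 in WT. In bulk liver, fewer hepatocytes and less RNA per hepatocyte cannot be told apart. No hepatocyte marker passed the test in the averaged comparison (0 of 8 with edgeR, 2 at an unadjusted p under 0.05 and 2 lower with DESeq2, median log2 fold change 0.10). Over all 16509 genes edgeR called 25.2%, 37.4% had an unadjusted p under 0.05, and DESeq2 called 5013, 2288 of them lower. Leaving out WT vehicle liver 2, WT APAP liver 1 or KO-labelled vehicle liver 1 gave 1 of 8 markers, with 4632, 4576 and 3441 genes called over the whole table.

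*Igfals*, made almost only by hepatocytes, was at 99.7, 84.3 and 115 CPM in WT vehicle livers and at 52.0, 62.9 and 45.0 CPM after APAP. In livers labelled KO it was at 135, 119.5 and 100.04 CPM with vehicle and at 51.7, 62.3 and 36.6 CPM after APAP. Again no APAP liver reached the lowest vehicle liver. The averaged log2 fold change was -1.07 (SE 0.15, adjusted p = 0.00053), with -1.23 (SE 0.21, adjusted p = 0.0057) under the KO label and -0.89 (SE 0.20, adjusted p = 0.0702) in WT. By the root mean square difference of profiles centred on their mean, over the 12 livers and 10902 candidate genes, the genes most like *Igfals* were *Cyp2d13* (0.13 on the log2 scale), *Sec22c* (0.15) and *Pbld1* (0.16), beside 0.59 for the variation of *Igfals* itself.

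*Jak2*, the kinase bound to the receptor, moved the other way. It was at 11.04, 12.2 and 10.7 CPM in WT vehicle livers and at 19.6, 20.5 and 13.7 CPM after APAP, and under the KO label at 12.0, 11.4 and 11.8 CPM with vehicle and at 21.2, 12.4 and 17.0 CPM after APAP. The vehicle livers were tightly grouped and every APAP liver lay above them, though by little for KO-labelled APAP liver 2. *Jak2* rose by 0.59 in the averaged comparison (SE 0.14, 1.51-fold, adjusted p = 0.0096). The difference was 0.67 (SE 0.20, adjusted p = 0.139) in WT and 0.53 (SE 0.19, adjusted p = 0.0756) under the KO label, so neither label passed alone. In TPM the treatment groups overlapped, at 3.12 to 4.78 with vehicle and 4.18 to 8.14 after APAP.

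These 3 were the only calls among the 10 genes in the averaged comparison (1 higher, 2 lower), in which 25.2% of 16509 genes were called, 2334 (14.1%) higher and 1829 (11.1%) lower. With limma on log2(TPM + 1) the split over all genes turned to 1968 higher and 2460 lower. A count of 3 of 10 is near that background, so it says nothing particular about the pathway as a whole. The same 3 genes were those whose treatments did not overlap in any of the 12 livers, as for 12.5% of all genes. Within the KO label 3 of the 10 genes were called, all lower (*Ghr*, *Igfals* and *Hsd3b5*), where 22.6% of all genes were called in either direction and 9.6% lower. In WT edgeR called 0 of the 10 genes, where 2.05% of all genes were called. At an unadjusted p under 0.05 there were 4, where 18% of all genes were, and DESeq2 called 2 (*Ghr* and *Igfals*), with 1413 of 15693 genes called over the whole table. By their ranges alone, 4 of the 10 genes were separate between treatments in WT, where 24.9% of all genes did, and 5 of the 10 under the KO label, where 42.8% did. The call in one label and not in the other is no difference between labels, since the test of the difference gave an adjusted p of 0.894 for *Ghr* and 0.882 for *Igfals*.

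**Figure D3:**
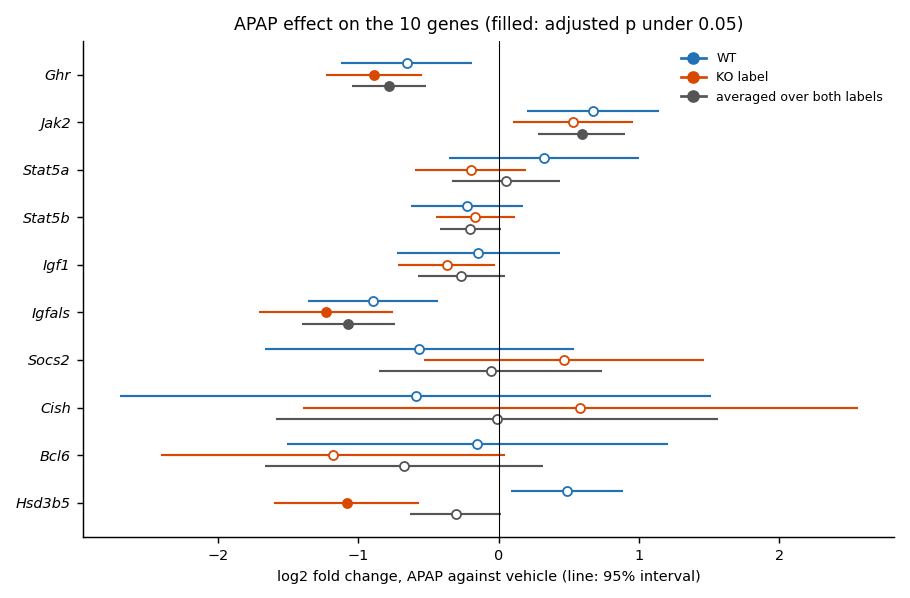
Log2 fold change of APAP against vehicle (x axis) for the 10 genes in WT (blue), under the KO label (orange) and averaged over both (grey), with 95% intervals as lines and filled points for an adjusted p under 0.05. The intervals of *Cish*, *Socs2* and *Bcl6* are wide and include 0, and *Hsd3b5* lies on opposite sides of 0 under the 2 labels.

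*Igf1*, which encodes the main secreted mediator of GH, did not pass the test. It was at 428, 569 and 467 CPM in WT vehicle livers and at 570.0, 369 and 376 CPM after APAP, and at 421, 421 and 525 CPM with vehicle and 338, 389 and 323 CPM after APAP under the KO label. The ranges overlapped, through WT APAP liver 1, which was the highest of the 12 in CPM yet the lowest in TPM (81.0 of a range of 81.0 to 119). The averaged log2 fold change was -0.27 (SE 0.14, 95% interval -0.58 to 0.04, adjusted p = 0.195). Without that liver it was -0.38, and the call was gained (adjusted p = 0.0333). Thus *Igf1* depended on a liver that also carried the most hemoglobin and neutrophil RNA, whose part in the result was not tested.

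Neither STAT5 gene passed the test in the averaged comparison. *Stat5b*, the more abundant of the pair in liver, ranged from 30.6 to 41.8 CPM with vehicle (median 39.3) and from 30.6 to 42.0 CPM after APAP (median 31.4). Its averaged log2 fold change was -0.20 (SE 0.10, 95% interval -0.42 to 0.015, adjusted p = 0.162). Without WT APAP liver 2 the difference was -0.27 and passed (adjusted p = 0.0389). *Stat5a* ranged from 5.99 to 10.4 CPM with vehicle and from 6.89 to 12.3 CPM after APAP (log2 fold change 0.05, 95% interval -0.33 to 0.44, adjusted p = 0.850), and its sign turned in TPM. The pair is close in sequence, but only 6.31% of the 100-base words of *Stat5a* transcripts and 4.87% of those of *Stat5b* are shared between them, so the counts are largely separate.

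*Cish*, *Socs2* and *Bcl6* differed more between livers of the same group than between treatments. *Cish* was at 2.93, 37.8 and 20.6 CPM in WT vehicle livers, at 8.00, 28.0 and 4.42 CPM in WT APAP livers, at 26.1, 3.35 and 1.64 CPM in vehicle livers with the KO label and at 23.1, 8.71 and 14.9 CPM in APAP livers with that label. Its highest and lowest livers were 23.1-fold apart, and both had received vehicle. *Socs2* was at 7.34, 21.6 and 8.64 CPM, then 5.58, 12.8 and 6.90, then 10.6, 4.03 and 4.46, then 13.3, 5.32 and 7.69 CPM in the same order of groups. In each group the liver with the most *Cish* was also the liver with the most *Socs2*. Of the 100-base words of *Socs2* transcripts 8.41% also occur in the gene *Gm9847*, so a small part of its counts is uncertain.

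*Bcl6* was at 56.8, 16.2 and 9.40 CPM in WT vehicle livers, at 22.8, 22.1 and 28.9 CPM in WT APAP livers, at 8.53, 35.2 and 57.7 CPM with vehicle and at 14.1, 14.1 and 16.3 CPM with APAP under the KO label. Vehicle livers held both its highest and its lowest values, and the APAP livers lay between them. The averaged log2 fold changes of APAP against vehicle were -0.01 for *Cish* (95% interval -1.59 to 1.57), -0.06 for *Socs2* (-0.85 to 0.74) and -0.67 for *Bcl6* (-1.66 to 0.32), with adjusted p of 0.995, 0.927 and 0.311. Such intervals leave room for changes of more than 1 log2 unit in *Cish* and *Bcl6*. Under the KO label and without vehicle liver 1, *Cish* was 2.66 higher (adjusted p = 0.0128) and *Bcl6* 1.62 lower after APAP (log2 fold change -1.62, adjusted p = 0.0050), so the absence of a call there rested on that liver.

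Relations between these 3 genes across livers are given as a description, with no p, since they were chosen after their values were seen. Between *Cish* and *Socs2* Pearson's r of the log2 levels was 0.83 over the 12 livers and Spearman's rho was 0.87. It was 0.86 within the 6 vehicle livers, 0.82 within the 6 APAP livers, and 0.89 without the 2 livers farthest from the median of *Cish*.

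Between *Cish* and *Bcl6* r was -0.84 and rho -0.76. Within the 6 vehicle livers r was -0.91 and within the 6 APAP livers -0.48, a difference that was not tested, and r was -0.69 without the 2 livers farthest from the median. The relation of *Socs2* with *Bcl6* was weaker in value, at r -0.50 and rho -0.56, with r -0.60 in vehicle and -0.13 in APAP livers. After subtracting the group means r was 0.84 for *Cish* and *Socs2*, -0.85 for *Cish* and *Bcl6* and -0.52 for *Socs2* and *Bcl6*.

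**Figure D4:**
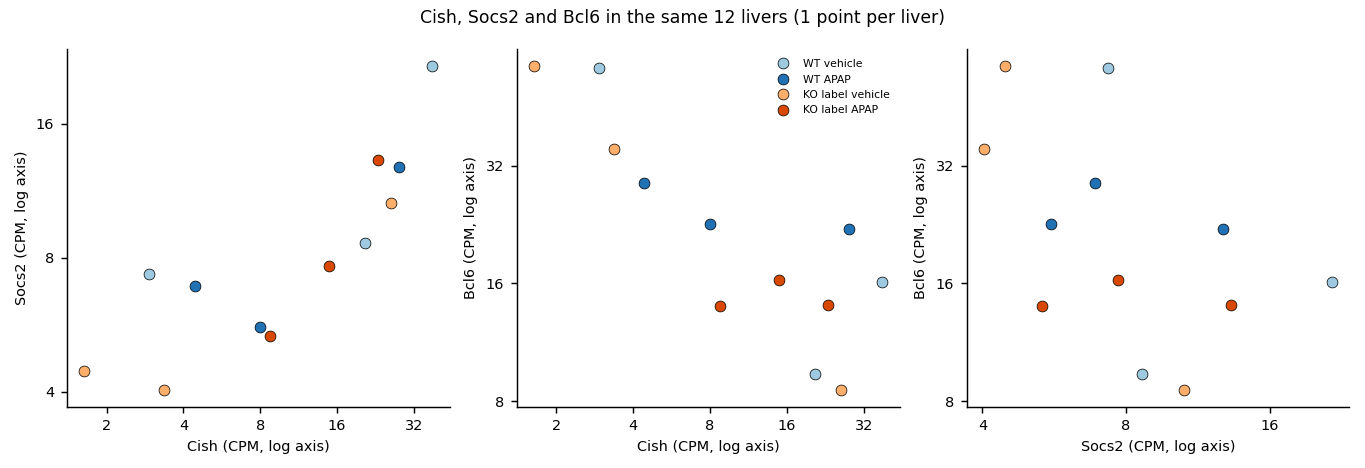
*Socs2* against *Cish*, *Bcl6* against *Cish* and *Bcl6* against *Socs2*, in CPM on log axes, with 1 point per liver (n = 12) coloured by group. *Socs2* rises with *Cish* (r = 0.83) and *Bcl6* falls with it (r = -0.84). *Cish* varies widely within each group. *Bcl6* spans 8.53 to 57.7 CPM over the vehicle livers, but only 22.1 to 28.9 CPM in WT APAP livers and 14.1 to 16.3 CPM in KO-labelled APAP livers.

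*Hsd3b5*, the male-specific target, had opposite differences under the labels. It was at 33.7, 28.8 and 38.9 CPM in WT vehicle livers and at 47.9, 43.8 and 49.8 CPM after APAP, each APAP liver above each vehicle liver (log2 fold change 0.49, SE 0.17, adjusted p = 0.187). Under the KO label it was at 52.0, 77.2 and 60.5 CPM with vehicle and at 25.0, 39.6 and 24.3 CPM after APAP, each APAP liver below each vehicle liver, and it fell by 1.08 (SE 0.23, 2.12-fold lower, adjusted p = 0.0122). Without vehicle liver 2 of that label the adjusted p was 0.0504. The difference between the labels' APAP effects was -1.57 (SE 0.30) and did not pass over all genes (edgeR adjusted p = 0.847), nor did edgeR pass any other gene (0 of 16509 called, 0% of genes, and 848 at an unadjusted p under 0.05). DESeq2 called 9 genes, *Hsd3b5* among them (adjusted p = 0.0061). In TPM the WT ranges overlapped, at 26.1 to 36.9 with vehicle and 29.7 to 50.9 after APAP. Of its 100-base words 7.79% also occur in *Hsd3b4* or related unnamed genes, so a small part of its counts is uncertain.

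None of the 10 genes passed the edgeR test between genotype labels within a treatment. With vehicle edgeR called 0 of 10 (DESeq2 called 1, and 137 of 15262 over all genes), against 0.0262% of all genes, and 1 had an unadjusted p under 0.05, against 7.56% of all genes. The 1 was *Hsd3b5*, whose vehicle livers under the KO label all lay above those of WT (log2 difference 0.90, SE 0.18, adjusted p = 0.362). *Stat5b* was lower in every vehicle liver with the KO label than in every WT one (-0.22, SE 0.12, adjusted p = 0.735), so the labels' ranges were separate for 2 of 10 genes, where 14% of all genes were. After APAP edgeR and DESeq2 called 0 of 10, against 0.0309% of all genes, and 2 had an unadjusted p under 0.05, against 3.31%. The 2 were *Bcl6*, lower under the KO label in every liver (-0.74, SE 0.17, adjusted p = 0.958), and *Hsd3b5*, likewise lower in every liver (-0.68, SE 0.22, adjusted p = 0.958), against 8.69% of all genes with separate ranges. For *Ghr* the interval of the difference was -0.31 to 0.37 with vehicle and -0.69 to 0.25 after APAP, and for *Igf1* -0.50 to 0.30 and -0.87 to 0.20.

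Around the receptor, 4 of the 14 genes of the GH receptor signalling list, *Ghr* and *Jak2* included, were called in the averaged comparison, near the 25.2% of all genes, 2 higher and 2 lower, and the median of their log2 fold changes was 0.01, as over all genes. *Irs2*, an adaptor of insulin and IGF receptors, rose from 22.2 to 37.0 CPM (log2 fold change 0.76, SE 0.17, adjusted p = 0.0073). *Ptpn6*, a phosphatase that is abundant in blood cells, fell by 0.37 (SE 0.13, adjusted p = 0.0472), a call that leaving out a liver ended for 10 of the 12 livers (adjusted p up to 0.122). *Stat3*, the other STAT best known in hepatocytes, was not picked by the rule for naming genes. It had a log2 fold change of 0.56 (adjusted p = 0.233).

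Of the 8 genes of the SOCS feedback list, with *Cish* and *Socs2* among them, 3 were called, all higher (median 0.25). The share of all genes called was 25.2%, with 14.1% higher. *Socs5* rose by 0.85 (SE 0.19, adjusted p = 0.0076), from 3.49 to 5.12 CPM in the vehicle livers to 6.06 to 11.7 CPM after APAP, without overlap. *Socs7* rose by 0.31 (SE 0.10, adjusted p = 0.0489), a call lost without any of 10 livers. The remaining call, named after its values were seen since its level is low, was *Socs1*, which inhibits JAK kinases directly and stood at 0.04 to 0.50 CPM with vehicle and 0.70 to 1.73 CPM after APAP (log2 fold change 2.71, adjusted p = 0.0013).

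Among IGF ligands and receptors 1 of 5 genes was called, where 25.2% of all genes were. The insulin receptor gene *Insr* fell by 0.70 (SE 0.13, adjusted p = 0.0022), from 131 to 79.6 CPM on average. Of the IGF binding proteins and proteases 9 of 12 genes passed the filter and 4 were called, 1 higher and 3 lower, *Igfals* included (median -0.39). Beside them, 14.1% of all genes were called higher and 11.1% lower. *Igfbp1*, an IGF binding protein that rises in fasting and injury, rose by 2.49 (SE 0.67, 5.63-fold, adjusted p = 0.0173), but its spread was wide, at 87.0 to 1800.0 CPM over the APAP livers against 18.1 to 173 CPM with vehicle, which overlap. Without WT APAP liver 1 its log2 fold change was 1.43 (adjusted p = 0.0351). *Igfbp4* fell by 0.58 (SE 0.10, adjusted p = 0.0021), with 923 to 1067 CPM after APAP and 1173 to 1725 CPM with vehicle. *Igfbp5* fell by 1.53 (SE 0.43, adjusted p = 0.0228), lost without any of 3 livers (adjusted p up to 0.0527), at a low level of 5.55 CPM with vehicle and 1.91 CPM after APAP.

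Among GH-dependent transcription factors, *Nr0b2*, the corepressor SHP of bile acid signalling, fell by 0.75 (SE 0.23, adjusted p = 0.0319), a call that 8 of the 12 livers ended when left out (adjusted p up to 0.0750). *Cux2*, a female-biased repressor named after its values were seen, fell from a range of 0.40 to 9.16 CPM with vehicle to 0.13 to 0.44 CPM after APAP (log2 fold change -2.84, adjusted p = 0.0060).

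**Figure D5:**
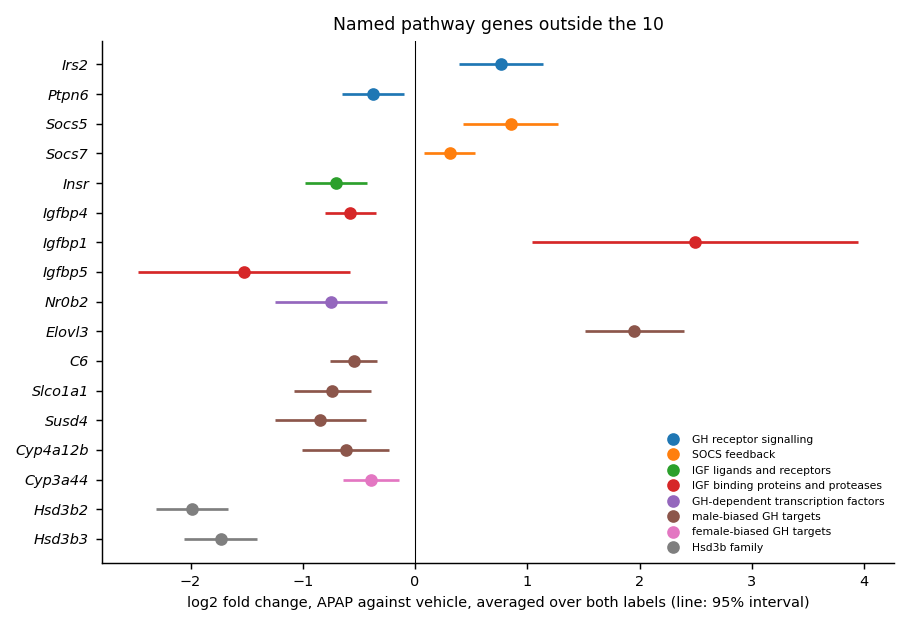
Averaged log2 fold change of APAP against vehicle (x axis, lines for 95% intervals) for 17 pathway genes outside the 10 that were called and had a mean log2 CPM of at least 1, coloured by list. *Igfbp1* and *Elovl3* rise most and *Hsd3b2* and *Hsd3b3* fall most.

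Of 18 male-biased genes, *Hsd3b5* included, 15 were below 0 in the averaged comparison and 7 were called, 1 higher and 6 lower, where 25.2% of all genes were called (median -0.39 against 0.01 over all genes). *Elovl3*, a fatty acid elongase, rose by 1.95 (SE 0.20, 3.87-fold, adjusted p = 7.3e-05), from 28.7 to 84.4 CPM with vehicle to 127 to 262 CPM after APAP. *C6*, a complement component, fell by 0.55 (SE 0.10, adjusted p = 0.0018), and *Slco1a1*, an organic anion uptake carrier, by 0.74 (SE 0.16, adjusted p = 0.0057). *Susd4* fell by 0.84 (SE 0.18, adjusted p = 0.0062), and *Cyp4a12b*, a fatty acid hydroxylase, by 0.62 (SE 0.18, adjusted p = 0.0245), the last lost without any of 7 livers (adjusted p up to 0.0654).

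By label, 1 of the 18 male-biased genes was called in WT (*Elovl3*), where 2.05% of all genes were, with 9 above and 9 below 0 (median -0.01). Under the KO label 17 were tested and 10 called, 1 higher and 9 lower (median -0.83), where 22.6% of all genes were called and 9.6% lower. In the test of the difference between the labels' effects edgeR called 0 of the 18, 17 of them were below 0 and 10 had an unadjusted p under 0.05, where 5.14% of all genes did. Of the 13 tested female-biased genes 11 were below 0 in the averaged comparison (median -0.57) and 3 were called, all lower. Beside them, 25.2% of all genes were called and 11.1% were called lower. Among the 3 was *Cyp3a44* (log2 fold change -0.40, SE 0.11, adjusted p = 0.0244), whose call was lost without any of 5 livers (adjusted p up to 0.0657). In the *Hsd3b* family *Hsd3b2* fell by 1.99 (SE 0.15, 3.97-fold lower, adjusted p = 6.8e-06) and *Hsd3b3* by 1.73 (SE 0.15, 3.32-fold lower, adjusted p = 1.7e-05), both without overlap of the treatments and both called under each label.

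Markers of other cell types are given as summed levels and counts, and their part in the results above was not tested. Over all genes edgeR called 25.2% in the averaged comparison, 14.1% higher and 11.1% lower. In the averaged comparison 6 of 6 tested neutrophil markers were above 0 and 1 was called higher, with a summed level of 1.198 to 19.6 CPM in WT vehicle livers and 12.7 to 131 CPM in WT APAP livers. Without WT vehicle liver 2, the vehicle liver with 19.6 CPM, 6 of 6 were called, and without any other single liver 0 or 1 was (0 without WT APAP liver 1). Under the KO label the same sum was 1.42 to 2.47 CPM with vehicle and 1.15 to 8.51 CPM after APAP. EdgeR called 0 of 7 Kupffer cell, 5 monocyte, 7 lymphocyte and 6 erythroid markers tested, with 0, 1, 0 and 4 at an unadjusted p under 0.05, and DESeq2 called 1 monocyte marker. Over all genes 37.4% had an unadjusted p under 0.05, and DESeq2 called 5013 of 16509. The marker counts also moved with single livers, where edgeR called 3085 to 4678 genes over the whole table on leaving out 1. Of the monocyte markers 3 of 5 were called without WT vehicle liver 2 and 1 without WT APAP liver 2, and of the erythroid markers 4 of 6 without WT APAP liver 2 or liver 3. The median erythroid log2 fold change was 1.97 with all livers and -0.22 without WT APAP liver 1, whose summed erythroid level was 17367 CPM against 253 to 749 CPM elsewhere. Of the sinusoidal endothelial markers, at summed levels of 144 to 250.1 CPM, 2 of 6 were called higher. Of the stellate cell markers, at 137 to 325 CPM, 1 of 6 was called lower, and 0 to 2 were on leaving out 1 liver, 0 without WT APAP liver 1 and 2 without WT vehicle liver 2. Every list had at least 1 liver with counts for each of its markers.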

How the data were processed

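RNA from 12 mouse livers was sequenced (poly-A selected, stranded, paired-end). The authors' deposited table holds read counts per gene beside FPKM and TPM values, made with StringTie 2.1.3b after trimming with Trimmomatic 0.38 and alignment with HISAT2 2.1.0 to mm10, per the submitters' processing notes, which also name FastQC 0.11.7 and Bowtie2 2.3.4.1. The deposited counts were not normalized, and the authors scaled FPKM and TPM by transcript length and depth. The FPKM values were read but not tested. Depth ran from 49737950 to 69566079 counts per liver, and 19370 of the 45777 genes had 0 counts in every liver. Each column matched 1 sample, and no 2 livers of the same group agreed within sampling noise. Livers of different groups were not compared in this way.

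Groups came from the sample labels. Counts were filtered by expression, scaled by TMM and tested with the edgeR 4.0.16 quasi-likelihood test in R 4.3.3, with Benjamini-Hochberg adjusted p-values over the whole tested table and 0.05 as the limit for a call. Each pairwise comparison used its own 6 livers, while the averaged comparison and the difference between the labels' effects used all 12. Standard errors are the absolute coefficient divided by the square root of F. Log2 levels used a prior count of 2. Alternatives were DESeq2 1.42.0 (size factors, and its Wald test), limma 3.58.1 on log2(TPM + 1) and log2(TPM + 0.1) (the scale nearest to the study's own analysis), a newer quasi-likelihood fit, other filters, a replicate block, all 12 livers in 1 fit and leaving out each liver. Scripts were tested on simulated data.

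The 10 genes and all lists were chosen with earlier results of these data known. Of each pathway list, genes with an adjusted p under 0.05 in the averaged comparison and a mean log2 CPM of at least 1 are named, at most 5 by smallest p, or the 2 with the smallest p where none passed. *Stat3*, *Socs1* and *Cux2* are named outside this rule. For each of the 10 genes with an averaged log2 fold change of at least 1 in size, the 3 genes with the most similar profile are named. The correlations were computed with scipy 1.17.1, were added after the data were seen and carry no p. The p-values measure only the spread between these livers, whose independence the labels do not state. 1 gene that the rule names and the counts of its list are not reported here.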

Additional observations from a re-analysis of the deposited data

Results flagged for a closer look

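*Hsd3b5* was the 1 gene of the 10 singled out for opposite differences under the genotype labels. In CPM each WT APAP liver lay above each WT vehicle liver and each APAP liver with the KO label lay below each vehicle liver with that label. The treatments were separate, in either direction, for 24.9% of all genes in WT and 42.8% under the KO label. How many of all genes were separate in opposite directions was not counted, so the 1 of 10 has no share to stand beside. The difference between the labels' log2 fold changes was -1.57 (SE 0.30, edgeR quasi-likelihood adjusted p = 0.847), and DESeq2 gave an adjusted p of 0.0061. In TPM the WT ranges overlapped through WT APAP liver 1, at 29.7 TPM. Single livers within groups of 3 were not screened for outlying values, and the effect of leaving each out is given with the alternatives.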

How the results depend on the processing

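Of 1000 values of the 10 genes recomputed under other settings, 941 kept their direction and their side of the threshold, 46 changed sign, 12 gained a call and 1 lost it. *Ghr*, *Igfals* and *Jak2* were called in the averaged comparison under every alternative run (adjusted p up to 0.0376). The number of the 10 genes called was 2 in WT with the DESeq2 Wald test and 2 with all 12 livers in 1 fit, against 0. It was 1 for the KO label against WT with vehicle and 1 for the difference between labels with the DESeq2 Wald test, against 0 each, and 2 to 5 under the KO label on leaving out 1 liver, against 3. The cause was not tested. The lowest gene named, *Socs1*, had 2 to 24 counts in the vehicle livers, so its level there carries a large counting error.

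Signs turned in log2 fold changes close to 0 or of variable genes. *Bcl6* in WT was 0.27 with a replicate block, 0.25 on log2(TPM + 1) and 0.33 on log2(TPM + 0.1). On the same scales *Socs2* for the KO label after APAP was -0.0033 and -0.0077, averaged *Stat5a* -0.023 and -0.028, and averaged *Cish* 0.29 and 0.47, the last 0.028 with a replicate block. Leaving out 1 liver gave, in WT, *Socs2* -1.02 to 0.080, *Cish* -1.73 to 0.20 and *Bcl6* -0.58 to 0.95. For the KO label with vehicle it gave *Ghr* -0.048 to 0.15, *Igf1* -0.21 to 0.035 and *Bcl6* -0.33 to 1.40, and after APAP *Jak2* -0.30 to 0.077, *Igfals* -0.29 to 0.087, *Socs2* -0.39 to 0.48 and *Cish* -0.23 to 1.31. For the difference between labels it gave *Jak2* -0.35 to 0.038, *Stat5b* -0.032 to 0.20 and *Igf1* -0.35 to 0.031. In the averaged comparison it gave *Stat5a* -0.056 to 0.19, *Socs2* -0.26 to 0.27 and *Cish* -0.56 to 1.02.

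Over all genes, the count called in WT was 322, against 1413 with the DESeq2 Wald test, 1523 with all 12 livers in 1 fit, 62 with the replicate block and 41 to 442 on leaving out 1 liver. Under the KO label it was 3538, against 2249 with all 12 livers and 1995 to 3368 on leaving out 1. For the KO label with vehicle it was 4, against 137 with the Wald test, 0 with the replicate block, 0 with all 12 livers and 0 to 16 on leaving out 1. After APAP it was 5, against 29, 1, 0 and 1 to 7 in the same order, with 1 under a minimum of 10 counts in every liver and 8 on log2(TPM + 1). For the difference between labels it was 0, against 9 with the Wald test and 0 to 2 on leaving out 1. Of 18 same-numbered pairs of livers 1 had a correlation of deviations over 0.1 (range -0.26 to 0.11). Differently numbered pairs were not correlated in this way, so whether replicate numbers pair the livers was not settled. With the replicate block 0 of the 10 genes were called in WT, 3 under the KO label and 3 in the averaged comparison, and the block changed no call among the 10.

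Without any 1 liver r was 0.81 to 0.88 for *Cish* and *Socs2*, -0.90 to -0.78 for *Cish* and *Bcl6* and -0.58 to -0.38 for *Socs2* and *Bcl6*, and on log2(TPM + 1) it was 0.89, -0.73 and -0.41, settings chosen after seeing the data.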
